A study of Mus musculus with 24 samples.

Results

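The 10 genes described here encode the antigen-presenting machinery of the major histocompatibility complex (MHC). They were the class I heavy chains H2-K1 and H2-D1, their light chain B2m, the peptide transporter subunit Tap1, the immunoproteasome subunits Psmb8 and Psmb9, the class II chains H2-Aa, H2-Ab1 and H2-Eb1, and the invariant chain Cd74. They were chosen by gene name, and 17 of the 56605 gene probes on the array carried one of these names, among 24812 genes with a symbol. In the array files' annotation (build mm9), 8 of them lie on chromosome 17, in or near the MHC, B2m lies on chromosome 2 and Cd74 on chromosome 18, and the files do not say in which exon a probe lies. Each gene was read through its probe with the highest mean over the 24 arrays, and the other 7 probes served as a check.

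RNA came from the nerve roots of the L4-L6 spinal segments of C57BL/6 mice, with no treatment and no transgene in any group. The ventral root holds efferent nerve fibres (EN), mostly motor axons, and the dorsal root holds afferent nerve fibres (AN), the axons of sensory neurons. Both were taken on the day of birth (P0) and at 1 week (1W), 3 weeks (3W) and 5 weeks (5W), which gave 8 groups of 3 arrays. In the study's methods several animals were used per age, tissue was collected into 1 tube per group, both sexes were used across the study, and each group had 3 independent experiments. How the animals and sexes were spread over the 3 samples is not given in the sources used here, so the spread given is between samples. Every value is the deposited log2 signal, already quantile normalized between arrays, and a difference of 1 is a 2-fold change. A root contains Schwann cells, fibroblasts, vessels, blood and resident immune cells beside its axons, and fewer cells of a type cannot be told apart from less RNA per cell.

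Class I molecules sit on nearly all nucleated cells and show peptides of the cell's own proteins to CD8 T cells. The immunoproteasome cuts these peptides, the Tap transporter carries them into the endoplasmic reticulum, and the heavy chain binds them together with B2m. Class II molecules show peptides of engulfed material to CD4 T cells and are made mainly by macrophages, dendritic cells and B cells. Cd74 escorts the new class II dimer and blocks its groove, and the H2-DM dimer later exchanges the remnant of Cd74 for a peptide. Nlrc5 is the transcriptional activator of class I genes and Ciita that of class II genes. Both act through the SXY module, in which a TGACG core (X2) lies a fixed distance ahead of an ATTGG core (Y). In C57BL/6 mice the H2-Ea gene is not expressed, so H2-Eb1 has no partner chain.

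The promoters of the genes are shown because several members carry the letters of this module close to their start. RefSeq promoter windows (build GRCm38.p6, 250 bases before to 50 after a transcription start) were found for 8 of the 10 genes, and H2-Ab1 and Cd74 had none. Each sequence is the 180 bases just before a start, 5′ to 3′ on the gene's strand. Capitals mark the TGACG and ATTGG cores and, in H2-K1 and H2-D1, the longest run of letters that both windows share (47 bases, of which the stretch shown for H2-D1 holds the end).
H2-K1 (chr17:34000348-34000527, minus strand): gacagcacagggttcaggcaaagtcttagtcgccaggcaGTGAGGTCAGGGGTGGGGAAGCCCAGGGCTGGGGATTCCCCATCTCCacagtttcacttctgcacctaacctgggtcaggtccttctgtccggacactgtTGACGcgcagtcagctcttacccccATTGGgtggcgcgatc
H2-D1 (chr17:35262914-35263093, plus strand): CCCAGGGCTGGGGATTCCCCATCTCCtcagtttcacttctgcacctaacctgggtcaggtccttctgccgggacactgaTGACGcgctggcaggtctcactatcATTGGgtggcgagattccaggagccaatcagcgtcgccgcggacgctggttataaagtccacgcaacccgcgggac
B2m (chr2:122147507-122147686, plus strand): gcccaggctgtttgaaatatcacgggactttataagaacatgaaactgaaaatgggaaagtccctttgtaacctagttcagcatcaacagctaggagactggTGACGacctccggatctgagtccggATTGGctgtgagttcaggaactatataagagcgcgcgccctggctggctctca
H2-Aa (chr17:34287824-34288003, minus strand): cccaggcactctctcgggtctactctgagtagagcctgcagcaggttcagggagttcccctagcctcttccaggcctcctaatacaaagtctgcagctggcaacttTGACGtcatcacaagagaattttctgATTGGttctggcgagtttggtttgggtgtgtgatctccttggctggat
H2-Eb1 (chr17:34305687-34305866, plus strand): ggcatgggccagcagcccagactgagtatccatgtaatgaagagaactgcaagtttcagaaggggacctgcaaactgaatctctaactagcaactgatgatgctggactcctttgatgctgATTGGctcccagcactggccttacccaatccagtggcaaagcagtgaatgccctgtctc

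TGACG and ATTGG lay on the same strand with 20 bases between them in H2-K1, H2-D1 and B2m and with 21 bases in H2-Aa. The pair began at position -101 of H2-D1, -78 of B2m, -74 of H2-Aa and -41 of H2-K1, counted back from the start printed. H2-K1 has a second start with a window of its own, in which the same pair lies at -55. Of all 32851 windows of 300 bases, which include several per gene, 96 (0.292%) held TGACG and ATTGG on one strand with 18 to 23 bases between them, on either strand. TGACG alone was present in 20.8% of windows and ATTGG alone in 37.4%. The run of 47 bases was found in 3 windows (0.00913%), those of H2-K1 and H2-D1, and all 3 held the pair too. The run was defined from these windows, so its presence in them was fixed in advance, and the windows of the H2-K1 starts overlap. H2-Eb1 had ATTGG at -59 with no TGACG in its window. The motifs and their spacing were chosen after the sequences had been seen, and a match is a description of letters only.

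Psmb9 and Tap1 are read away from each other from a common stretch of 225 bases between their starts (chr17:34187331-34187555, plus strand, the direction of Tap1). It is shown since both genes read highest at 1W on the same array of each root, with TGACG and CCAAT, the reverse complement of ATTGG, in capitals. The cores stood far apart and in opposite orientation, so neither gene held the pair in its window.
Psmb9 to Tap1: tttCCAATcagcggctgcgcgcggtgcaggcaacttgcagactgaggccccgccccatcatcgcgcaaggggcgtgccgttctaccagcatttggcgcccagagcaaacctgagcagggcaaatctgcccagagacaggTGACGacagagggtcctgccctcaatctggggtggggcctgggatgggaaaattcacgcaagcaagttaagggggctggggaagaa
Psmb8 had neither core in its window.

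On each array 55.1% to 71.7% of spots were well above background, and none was saturated. A probe entered the tests if every array of some group read it well above background, which left 36398 probes (64.3%) and all 10 members. The 10 Schwann cell markers, genes of the glia that ensheath root axons, rose with age in their summed log2 signal. They summed to 19.09 to 19.39 in AN and 19.63 to 19.72 in EN at P0. At 5W the sums were 20.37 to 20.47 in AN and 20.36 to 20.40 in EN. The 8 sensory neuron markers summed to 14.89 to 16.69 on the P0 arrays of both roots and to 10.46 to 12.06 on the later EN arrays. Among the 3W AN arrays they stood at 17.83 on number 3 against 12.92 and 12.49 on numbers 1 and 2. Numbers 1 to 3 name the replicates as the labels do. The arrays lay on 4 slides, with all 3W arrays on slide 4 beside number 3 of 5W, and with P0 on slides 1 and 3.

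**Figure D1:**
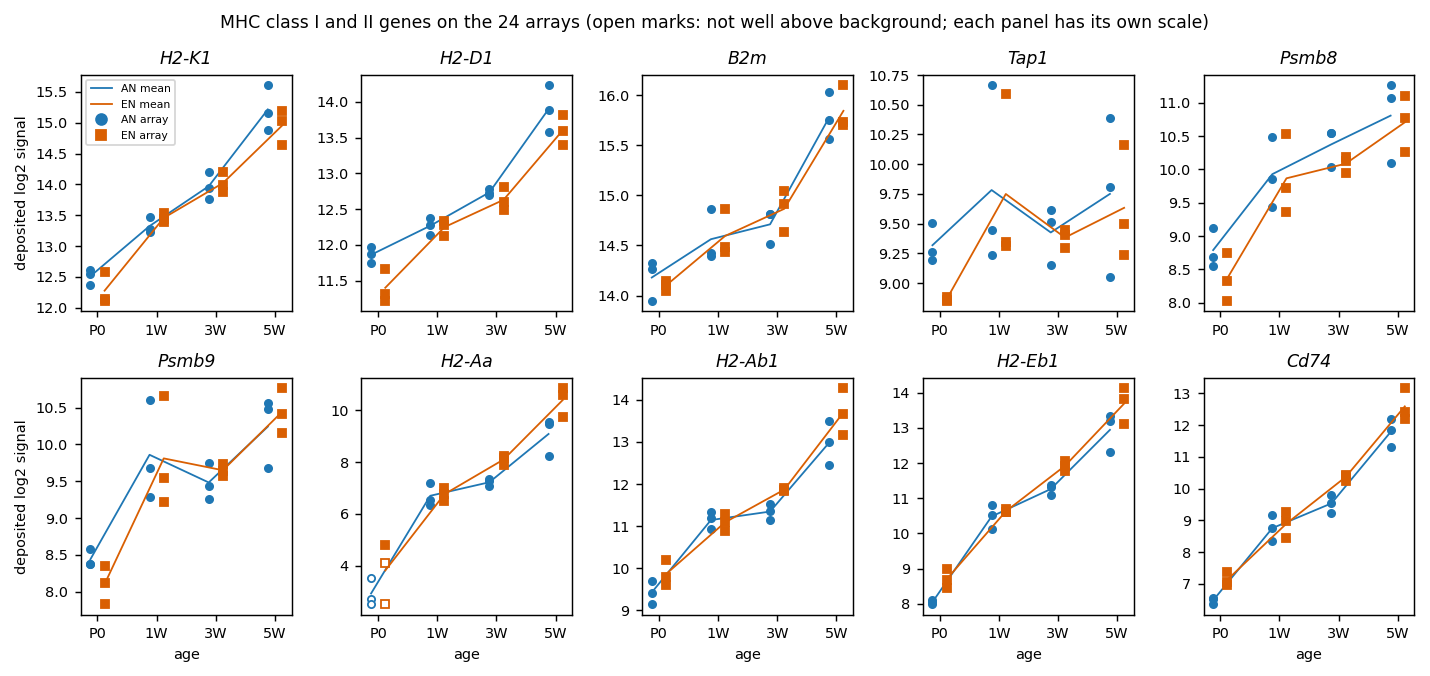
Deposited log2 signal (vertical axis) of each gene on the 24 arrays by age (horizontal axis), with AN as blue circles and EN as orange squares; lines join group means and open marks were not well above background. The class II genes and Cd74 climb from P0 to 5W in both roots, while Tap1 spreads widely at 1W and 5W.

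The class II genes were the members with the largest rise. All 4 rose from P0 to 1W, 3W and 5W in both roots, by 3.56 to 6.59 log2 units at 5W. Cd74 read 7.38, 6.97 and 7.05 on the P0 arrays, 8.98, 9.26 and 8.46 on the 1W arrays, 10.44, 10.41 and 10.25 on the 3W arrays and 12.19, 13.15 and 12.43 on the 5W arrays in EN. In AN it read 6.53, 6.37 and 6.54 on the P0 arrays, 8.75, 9.16 and 8.36 on the 1W arrays, 9.80, 9.56 and 9.25 on the 3W arrays and 11.31, 12.21 and 11.83 on the 5W arrays. Within a root, every array of an older group lay above every array of a younger one, by the least margin between 1W and 3W in AN. From P0 to 5W the change was 5.46 ± 0.27, adjusted p = 1.68e-11 in EN, and 5.30 ± 0.27, adjusted p = 2.08e-11 in AN (± SE; limma on 24 arrays, n = 3 per group, Benjamini-Hochberg over 36398 probes).

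H2-Eb1, the beta chain of the E molecule, followed the same course. It stood at 8.98, 8.45 and 8.67 in EN at P0 and at 13.12, 14.12 and 13.83 at 5W. In AN it stood at 8.11, 8.00 and 8.04 and 12.31, 13.20 and 13.33. The groups of each age were apart from those of every other age in both roots, and the 5W change was 4.99 ± 0.25, adjusted p = 2.2e-11 in EN and 4.90 ± 0.25, adjusted p = 2.52e-11 in AN by limma. H2-Ab1, the beta chain of the A molecule, read 10.20, 9.60 and 9.78 in EN at P0 and 13.17, 14.27 and 13.67 at 5W, a change of 3.84 ± 0.26, adjusted p = 9.5e-10. In AN it read 9.70, 9.16 and 9.42 and then 12.44, 13.51 and 13.01, a change of 3.56 ± 0.26, adjusted p = 2.35e-09. Its 3W and 1W values overlapped in AN but not in EN.

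H2-Aa, the alpha chain of the A molecule, was the member that was not well above background at P0. No AN array and 1 of the 3 EN arrays measured it there, against all 18 later arrays. Its AN values were 3.52, 2.72 and 2.53 on the P0 arrays, 6.54, 7.20 and 6.35 on the 1W arrays, 7.34, 7.25 and 7.06 on the 3W arrays and 8.23, 9.48 and 9.54 on the 5W arrays. Set against the lowest signal well above background on each P0 array, AN was at least 4.00-fold higher at 1W, at least 5.75-fold at 3W and at least 20.9-fold at 5W. The fit, which uses the dim values themselves, gave 6.16 ± 0.46, adjusted p = 2.64e-09 in AN. In EN it gave 6.59 ± 0.46, adjusted p = 1.21e-09, from values of 4.80, 2.53 and 4.11 to 9.76, 10.84 and 10.59. Both numbers depend on signals near background.

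The class I chains and B2m rose by smaller factors, 1.60 to 2.71 log2 units at 5W. H2-K1 read 12.58, 12.14 and 12.12 on the P0 arrays, 13.39, 13.54 and 13.44 on the 1W arrays, 14.21, 13.87 and 13.99 on the 3W arrays and 15.20, 14.64 and 15.03 on the 5W arrays in EN. The AN values were 12.61, 12.37 and 12.55 on the P0 arrays, 13.22, 13.47 and 13.28 on the 1W arrays, 14.21, 13.93 and 13.77 on the 3W arrays and 15.61, 14.89 and 15.16 on the 5W arrays. The ages were apart within each root, and AN and EN of 1 age overlapped at every age. The 5W change was 2.68 ± 0.18, adjusted p = 1.09e-09 in EN, and 2.71 ± 0.18, adjusted p = 9.12e-10 in AN. H2-D1 stood at 11.66, 11.22 and 11.32 in EN at P0 and 13.81, 13.40 and 13.59 at 5W, a change of 2.20 ± 0.16, adjusted p = 1.68e-09. In AN it stood at 11.97, 11.74 and 11.87 and 14.23, 13.58 and 13.89, a change of 2.04 ± 0.16, adjusted p = 4.34e-09. The H2 class I genes are near-identical in long stretches, so a probe for one may also bind transcripts of another, and these values are uncertain as to the single gene. The P0 and 5W values of H2-D1 were apart in both roots.

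B2m, which pairs with every class I heavy chain, lies outside the MHC and has no such relatives. It read 14.05, 14.11 and 14.14 on the P0 arrays, 14.44, 14.49 and 14.86 on the 1W arrays, 15.05, 14.63 and 14.92 on the 3W arrays and 15.73, 16.10 and 15.70 on the 5W arrays in EN. AN gave 13.95, 14.32 and 14.27 on the P0 arrays, 14.40, 14.43 and 14.86 on the 1W arrays, 14.81, 14.81 and 14.51 on the 3W arrays and 15.75, 16.03 and 15.56 on the 5W arrays. All 5W values lay above all younger ones, while 1W and 3W overlapped in both roots. The change at 5W was 1.74 ± 0.17, adjusted p = 1.26e-07 in EN and 1.60 ± 0.17, adjusted p = 3.85e-07 in AN by limma. At 1W it was 0.49 ± 0.17, adjusted p = 0.0408 in EN and 0.38 ± 0.17, adjusted p = 0.128 in AN, under 2-fold in both.

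**Figure D2:**
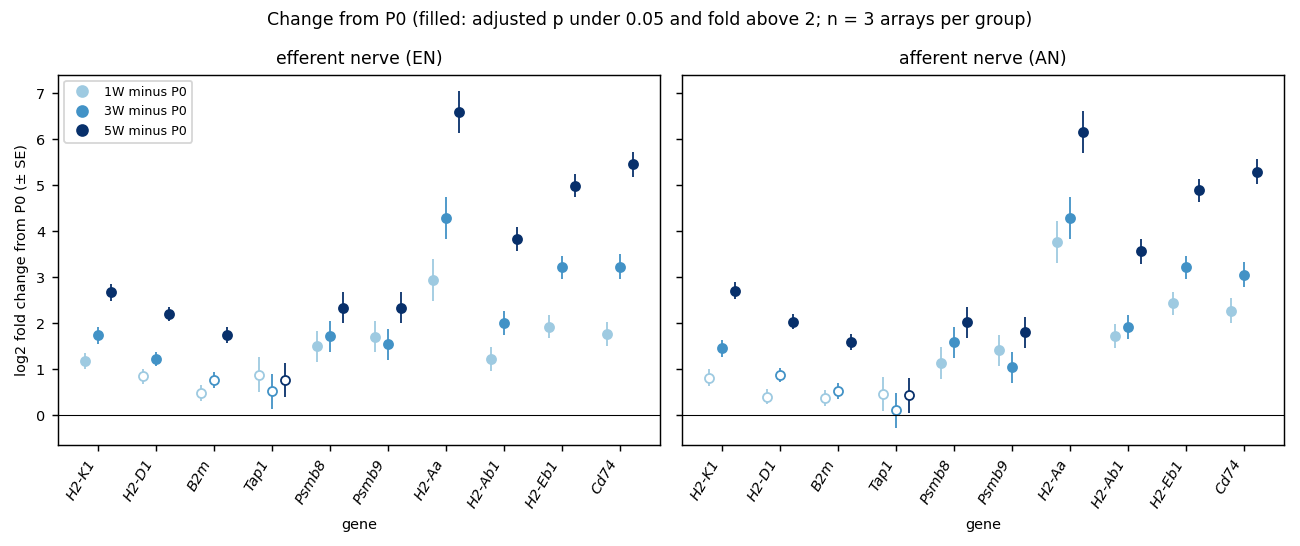
Log2 fold change from P0 (vertical axis, ± SE, n = 3 arrays per group) of each gene at 1W, 3W and 5W in EN (left) and AN (right); filled points passed an adjusted p under 0.05 and a fold above 2. The class II genes reach 3.56 to 6.59 at 5W, the class I chains and B2m 1.60 to 2.71, and Tap1 is not called at any age; the H2-Aa values rest on a P0 signal near background.

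By the rule of an adjusted p under 0.05 and a fold above 2, 7 of 10 members rose from P0 to 1W in EN, where 6.24% of all tested probes did so in that direction. At 3W 8 did (16.1% of probes) and at 5W 9 (15.4%). In AN the counts were 6 at 1W (4.96%), 7 at 3W (15%) and 9 at 5W (15.2%). No member fell in any of these comparisons, and Tap1 was the one not called at 5W in either root. The median change of the 10 members at 5W was 2.51 in EN and 2.37 in AN, beside medians of 0.04 and 0.03 over all tested probes. These comparisons share the P0 arrays, on which the sensory neuron markers of EN were higher than later. In AN these markers summed to 15.01 to 16.69 at P0 and to 10.77 to 14.65 at 5W, with no overlap. The part of these differences in the changes was not tested.

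The steps between neighbouring ages were uneven. From 1W to 3W, 3 members rose in EN (5.65% of probes), namely Cd74, H2-Eb1 and H2-Aa, and none in AN (6.19%), where 4 had an adjusted p under 0.05 at a smaller fold (14.6% of probes at any fold). At any fold 5 did in EN (13.2%). Cd74 changed by 1.47 ± 0.27, adjusted p = 0.000582 in EN over this step and by 0.78 ± 0.27, adjusted p = 0.0348 in AN by limma. The 3W arrays share a slide that no 1W array lay on, and with slide as a term the EN count was 1. From 3W to 5W, 4 members rose in EN (0.701% of probes), the 4 class II genes. In AN 7 rose (1.05%), the class II genes with H2-K1, H2-D1 and B2m. In EN those 3 had adjusted p-values of 0.0115, 0.00285 and 0.00541 and changes of 0.93, 0.97 and 0.98, just under 2-fold, and without number 1 of 3W EN the EN count was 7. Fitted with the 2 groups of a step alone, in place of all 24 arrays, neither root had a member past the threshold from 3W to 5W.

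Arrays of 1 slide gave the same directions of change with age for Cd74, H2-K1 and B2m, but not for Tap1. On slide 3, which holds numbers 2 and 3 of P0, number 3 of 1W and number 2 of 5W, Cd74 was 6.14 higher at 5W in EN and 5.75 higher in AN. H2-K1 was 2.52 and 2.43 higher there and B2m 1.97 and 1.73 higher. Tap1 differed there by 0.37 in EN and by -0.29 in AN. On slide 4, which holds all 3W arrays and number 3 of 5W, Cd74 was 2.06 higher at 5W than at 3W in EN and 2.29 in AN. These within-slide differences rest on 1 array at 5W and carry no test.

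Psmb8 and Psmb9 replace catalytic subunits of the constitutive proteasome, and both rose in both roots. Psmb8 read 8.74, 8.33 and 8.03 on the P0 arrays, 9.35, 9.72 and 10.53 on the 1W arrays, 10.18, 10.13 and 9.95 on the 3W arrays and 10.77, 10.26 and 11.10 on the 5W arrays in EN. In AN it read 9.12, 8.55 and 8.69 on the P0 arrays, 9.44, 9.86 and 10.49 on the 1W arrays, 10.55, 10.54 and 10.04 on the 3W arrays and 11.07, 10.09 and 11.26 on the 5W arrays. P0 lay below every later age, and the later ages overlapped one another except for 3W and 5W in EN. The 5W change was 2.34 ± 0.34, adjusted p = 1.27e-05 in EN, and 2.02 ± 0.34, adjusted p = 6.84e-05 in AN. Psmb9 read 8.35, 8.12 and 7.84 on the P0 arrays, 9.22, 9.55 and 10.66 on the 1W arrays, 9.74, 9.64 and 9.57 on the 3W arrays and 10.42, 10.15 and 10.76 on the 5W arrays in EN. Its AN values were 8.58, 8.37 and 8.37 on the P0 arrays, 9.29, 9.68 and 10.60 on the 1W arrays, 9.75, 9.44 and 9.26 on the 3W arrays and 10.48, 9.69 and 10.56 on the 5W arrays. Its P0 values also lay below all later ones, and 1W overlapped both older ages. The 5W change was 2.34 ± 0.34, adjusted p = 1.18e-05 in EN and 1.80 ± 0.34, adjusted p = 0.000204 in AN by limma. With slide as a term the 3W calls of both genes were lost, with adjusted p-values of 0.131 to 0.479.

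Tap1 read 8.85, 8.88 and 8.85 on the P0 arrays, 9.31, 9.35 and 10.59 on the 1W arrays, 9.45, 9.40 and 9.30 on the 3W arrays and 9.50, 9.24 and 10.16 on the 5W arrays in EN. In AN it read 9.26, 9.19 and 9.50 on the P0 arrays, 9.23, 9.45 and 10.66 on the 1W arrays, 9.61, 9.51 and 9.15 on the 3W arrays and 9.81, 9.05 and 10.39 on the 5W arrays. Number 3 was high at 1W in both roots, and at 5W number 3 was high and number 2 low in both. The 5W change was 0.77 ± 0.38, adjusted p = 0.0942 in EN and 0.43 ± 0.38, adjusted p = 0.359 in AN by limma. It was not called in any comparison.

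The same arrays stood apart in interferon target genes, which cells switch on after interferon binds its receptor. The 16 type I interferon targets summed to 15.40 on number 3 of 1W AN and 15.62 on number 3 of 1W EN, against 13.32 to 13.72 on the other 4 arrays of that age. The 13 interferon gamma targets summed to 14.74 and 14.92 on those arrays, against 12.53 to 12.88. At 5W the type I targets summed to 14.41 in AN and 14.74 in EN on number 2, and to 15.84 to 16.05 on the other 4 arrays. Number 3 of 1W was the only 1W number on slide 3, and number 2 of 5W the only 5W number there. The 6 blood markers summed to 20.11 in AN and 20.08 in EN on number 3 of 1W, against 19.06 to 19.35 on the other 1W arrays. The part of the slide and of blood in the values of these arrays was not tested. Psmb8, Psmb9 and Tap1 were highest at 1W and lowest at 5W on these same numbers, in both roots. Cd74 had another order, being lowest at 1W on number 3 and highest at 5W on number 2, in both roots. Without number 3 of 1W in both roots, the change of Psmb8 from P0 to 1W was 0.86 in AN, adjusted p = 0.075 by limma, and no longer a call, while that of Psmb9 was 1.05 in AN and stayed called. Without number 2 of 5W in both roots, the 5W counts stayed at 9, and Tap1 changed by 0.97 in EN, adjusted p = 0.045 by limma, at a fold just under 2.

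**Figure D3:**
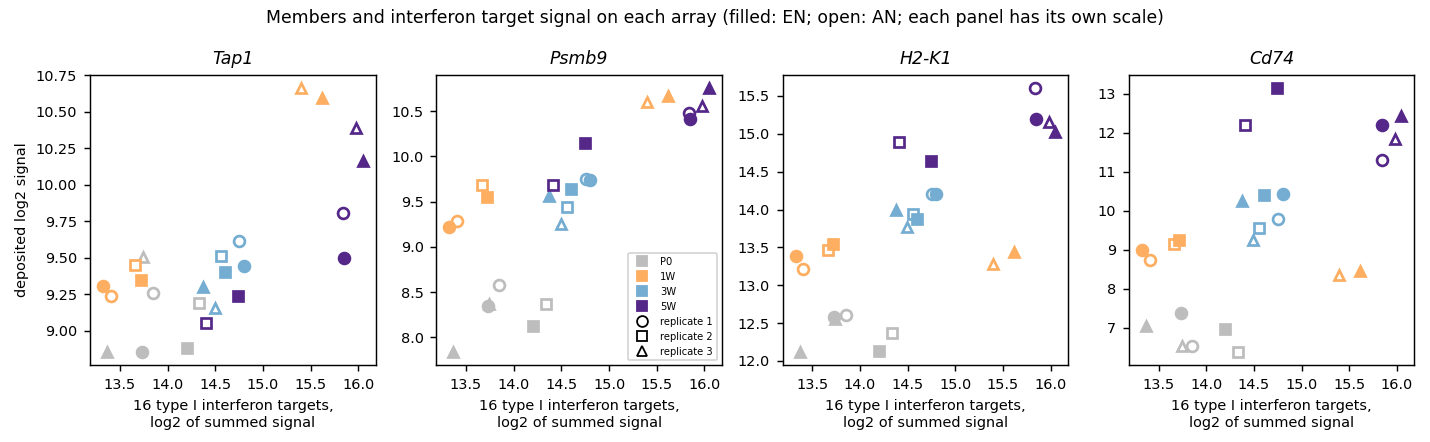
Deposited log2 signal (vertical axis) of Tap1, Psmb9, H2-K1 and Cd74 against the log2 of the summed signal of 16 type I interferon targets (horizontal axis), 1 mark per array, coloured by age, shaped by replicate number and filled for EN. Number 3 of 1W lies far to the right of the other 1W arrays, with the highest Tap1 and Psmb9 of its age and the lowest Cd74; number 2 of 5W lies left of the other 5W arrays.

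The comparison of the roots asks whether sensory and motor fibre tracts differ at an age. No member passed the threshold in AN against EN at P0 (0.327% of probes called in either direction), 1W (2.79%), 3W (3.12%) or 5W (3.32%). The lowest adjusted p by limma was 0.0777, for Cd74 at 3W. At an unadjusted p under 0.05 the P0 comparison held 3 members (7.34% of probes), that of 1W 0 (13.7%), that of 3W 2 (19.4%) and that of 5W 4 (20.7%). Replicate numbers of AN and EN were taken as pairs, so each age also gives 3 differences between roots. Deviations from the group means correlated over probes in all 12 pairs (r of 0.107 to 0.647). At 3W these r were only 0.18, 0.11 and 0.21, and number 1 of AN gave 0.12 with number 2 of EN. Same-numbered arrays of an age lay on the same slide, and the part of the slide in r was not tested. The blocked fit applies 1 correlation (0.564) to all ages, so its 3W p-values rest on pairs that are weak at 3W.

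In the pairs, the class II genes were lower in AN than in EN at 3W and 5W. All 12 differences of the 4 genes were negative at each of these ages, with medians of -0.72 at 3W and -0.84 at 5W, and 11 of 12 were negative at P0, with a median of -0.55. At 1W 6 of 12 were negative, with a median of -0.03. The P0 count and median include H2-Aa (-1.27, 0.19 and -1.58), whose signal was near background at that age, so the signs of its differences are uncertain. The 4 genes share arrays, so these counts are not independent. At 3W the difference of number 3 was the most negative in all 4 genes. Its AN array was the one with the highest sum of sensory neuron markers at that age, and the part of that tissue was not tested. Cd74 differed by -0.64, -0.85 and -1.0035 in the 3 pairs of 3W and by -0.88, -0.95 and -0.60 in those of 5W. With the pairs as a random block the difference was -0.83 ± 0.15, adjusted p = 0.000852 at 3W, and -0.81 ± 0.15, adjusted p = 0.000938 at 5W (limma). At P0 it was -0.65 ± 0.15, adjusted p = 0.0158, and at 1W -0.14 ± 0.15, adjusted p = 0.588.

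H2-Eb1 differed by -0.68, -0.47 and -0.83 at 3W and by -0.81, -0.92 and -0.50 at 5W, which gave -0.66 ± 0.16, adjusted p = 0.00505, and -0.75 ± 0.16, adjusted p = 0.00189 with the block in limma. At P0 it gave -0.65 ± 0.16, adjusted p = 0.0165. H2-Ab1 gave -0.52 ± 0.15, adjusted p = 0.0151 at 3W and -0.72 ± 0.15, adjusted p = 0.00166 at 5W in the same fit. H2-Aa differed by -1.52, -1.36 and -1.06 at 5W, and at -1.31 ± 0.30, adjusted p = 0.00365 it was the only member past both limits. At 3W it gave -0.88 ± 0.30, adjusted p = 0.04 in that limma fit. Under the block 13.9% of all probes were lower in AN at 5W at any fold (1.46% by over 2-fold), 13.6% at 3W, 7.1% at 1W and 2.96% at P0.

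Through the probes used, H2-K1 and H2-D1 were higher in AN in all pairs of P0 and 5W and mixed at the ages between. A second H2-K1 probe read lower in AN on number 3 of 5W, at 13.48 against 13.51 in EN. H2-D1 was higher in AN in every pair at P0 (0.31, 0.52 and 0.55), with 0.46 ± 0.09, adjusted p = 0.00571 under the block in limma. At 5W it was 0.30 ± 0.09, adjusted p = 0.0276. Higher in AN under the block at any fold were 2.38% of probes at P0 and 12.1% at 5W, with 7.01% at 1W and 10.1% at 3W. H2-K1 differed by 0.23 ± 0.11, adjusted p = 0.295 at P0 and by 0.26 ± 0.11, adjusted p = 0.0913 at 5W. At 1W H2-K1 was lower in AN in all 3 pairs, by a mean of -0.13 with an adjusted p of 0.484, and at 3W in 1 of 3, by -0.05 with an adjusted p of 0.787 (limma with the block). H2-D1 was lower in 1 pair at 1W and 1 at 3W, with means of 0.02 and 0.10. B2m differed by -0.06 at 5W and 0.08 at P0, and Tap1, Psmb8 and Psmb9 had adjusted p-values of 0.265 to 0.942 at all 4 ages in the blocked limma fit.

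**Figure D4:**
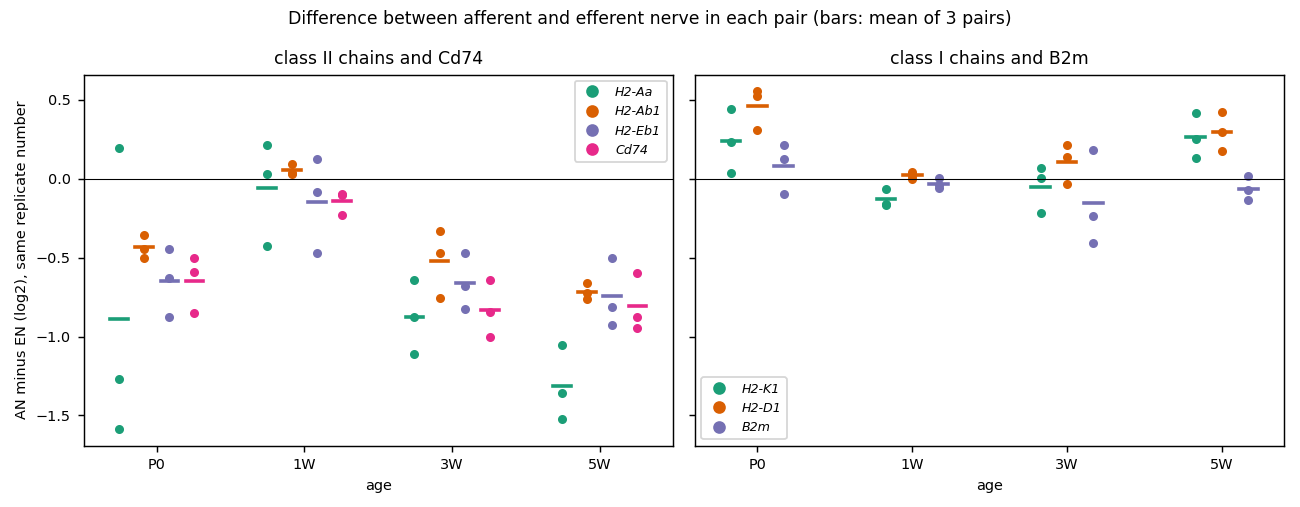
AN minus EN in log2 units (vertical axis) for the 3 pairs of each age (horizontal axis), with class II genes and Cd74 on the left and class I chains and B2m on the right; bars are means of 3 pairs. All class II points lie below 0 at 3W and 5W and scatter around 0 at 1W, while H2-D1 lies above 0 in every pair of P0 and 5W.

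Summed markers of several cell types read lower in AN than in EN at 3W or 5W. The 14 macrophage markers, which include the receptor gene Csf1r and the complement genes C1qa, C1qb and C1qc, summed to 16.74 to 16.96 on the 5W AN arrays and to 17.07 to 17.23 on the 5W EN arrays. At 3W the ranges were 16.01 to 16.62 and 16.53 to 16.70, at 1W 16.10 to 16.35 and 16.30 to 16.46, and at P0 15.36 to 15.65 and 15.37 to 15.64. The roots were apart at 5W and overlapped at the other ages, and 0 of the 14 markers passed the threshold between roots at any age. The 7 B cell markers summed to 10.20 to 10.37 in AN and 10.59 to 11.05 in EN at 1W, and to 10.38 to 10.90 and 11.26 to 11.40 at 3W, with the roots apart. At 5W they overlapped, at 10.78 to 11.38 and 11.23 to 11.87. The 8 fibroblast markers summed to 19.16 to 19.48 in AN and 19.52 to 19.66 in EN at 3W, and to 18.95 to 19.33 and 19.40 to 19.63 at 5W. The 6 blood markers summed to 19.62 to 19.74 and 19.89 to 19.93 at 3W, and to 19.27 to 19.61 and 19.73 to 19.87 at 5W. The roots were apart in both sums at both ages. The 8 endothelial markers were apart at 3W, at 14.03 to 14.51 in AN and 14.76 to 14.90 in EN, and overlapped at 5W. At 5W 0 of 8 fibroblast and 0 of 6 blood markers were higher in AN than in EN, and none of these markers passed the threshold between roots at any age. The 8 sensory neuron markers went the other way. At 1W they summed to 16.16 to 16.50 in AN and 10.46 to 12.06 in EN, and 8 passed the threshold as higher in AN. At 3W they summed to 12.49 to 17.83 and 10.56 to 11.31, and 2 passed. At 5W the sums overlapped, at 10.77 to 14.65 and 10.98 to 11.61, and 1 passed. The part of these cell types in the class II differences was not tested.

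Whether the courses from P0 differed between the roots was tested as an interaction. No member passed at 1W (0.0632% of probes did), 3W (0.525%) or 5W (0.931%), with adjusted p-values of 0.733 to 1 by limma. At an unadjusted p under 0.05 there were 0 members, beside 7.06%, 9.19% and 10.8% of probes. With the pairs as a block the lowest adjusted p was 0.0741, for H2-D1 at 1W, where the AN minus EN difference was 0.44 log2 units smaller than at P0. No difference between the courses was shown.

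The other genes of the pathway were read from lists that include the members, and their 5W counts stand beside 15.4% of all probes called higher in EN and 15.2% in AN. Of the 11 tested class II chain and loading genes, 7 rose at 5W in EN and 7 in AN, with medians of 3.84 and 3.56. H2-DMb1, one chain of the peptide exchange dimer, changed most. It read 9.47, 8.26 and 8.50 on the P0 arrays, 13.98, 14.05 and 13.30 on the 1W arrays, 15.23, 15.16 and 15.24 on the 3W arrays and 15.49, 15.45 and 15.50 on the 5W arrays in EN. Most of its rise had come by 1W, at 5.04 ± 0.33, adjusted p = 3.59e-08 by limma, while from 3W to 5W it changed by 0.27 ± 0.33, adjusted p = 0.728. H2-DMa, the other chain, changed by 3.54 ± 0.28, adjusted p = 1.21e-07 at 1W in EN and by 4.65 ± 0.28, adjusted p = 1.68e-10 at 5W. In AN the 5W change was 7.73 ± 0.33, adjusted p = 4.04e-12 for H2-DMb1, and 5.16 ± 0.28, adjusted p = 4.47e-11 for H2-DMa.

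Both DM genes were lower in AN, and the test without the pairs passed at 1W, where no member did. H2-DMb1 read 7.76, 6.58 and 6.98 in AN at P0 and 12.51, 12.66 and 11.57 at 1W, with every AN array below every EN array at both ages. The difference was -1.63 ± 0.33, adjusted p = 0.026 at P0 and -1.53 ± 0.33, adjusted p = 0.012 at 1W by limma. For H2-DMa it was -1.10 ± 0.28, adjusted p = 0.0284 at 1W, and -1.04 ± 0.28, adjusted p = 0.0319 at 3W. At 5W neither passed, with -0.64 ± 0.33, adjusted p = 0.294 for H2-DMb1, and -0.66 ± 0.28, adjusted p = 0.178 for H2-DMa. With the pairs as a block the adjusted p-values of H2-DMb1 were 5.49e-05 at P0 and 0.0225 at 5W, and those of H2-DMa 0.000482 and 0.0109 (limma). A second H2-DMb1 probe was above background on 2 of 24 arrays and gives no check. H2-Eb2 and the pseudogene H2-Ea-ps were well above background on too few arrays to be tested. Ctss, a lysosomal protease that trims Cd74, changed by 1.41 ± 0.15, adjusted p = 3.34e-07 in EN at 5W, while Lgmn and Ctsl, other lysosomal proteases, changed by -0.12 and -0.19 with adjusted p-values of 0.695 and 0.54.

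Of the 22 tested class I heavy chain genes, 13 rose and 1 fell at 5W in EN, and 13 rose and 1 fell in AN. Among them H2-Bl changed by 3.10 ± 0.26, adjusted p = 1.17e-08 and H2-T23, which encodes the non-classical chain Qa-1, by 2.32 ± 0.16, adjusted p = 1.23e-09 in EN by limma. The gene that fell was Cd1d1, whose protein presents lipids, by -2.30 ± 0.21, adjusted p = 4.52e-08 in EN and -2.80 ± 0.21, adjusted p = 3.12e-09 in AN. H2-Q4 changed by -0.43 ± 0.27, adjusted p = 0.191 and H2-Q1 by -1.02 ± 0.58, adjusted p = 0.15, neither past the threshold. Of 9 peptide loading genes 3 rose in EN and 2 in AN. Tapbp, the bridge between the transporter and the heavy chain, changed by 2.08 ± 0.16, adjusted p = 4.29e-09 in EN. Tap2, the partner of Tap1, changed by 0.97 ± 0.20, adjusted p = 0.000387, under 2-fold, and Calr, a chaperone, by -0.75 ± 0.29, adjusted p = 0.0375.

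Of the 4 tested immunoproteasome and PA28 genes, 2 rose at 5W in both roots, Psmb8 and Psmb9. Psmb10, the third immunoproteasome subunit, changed by 0.35 ± 0.15, adjusted p = 0.0618 in EN and 0.36 ± 0.15, adjusted p = 0.0593 in AN by limma. The constitutive subunits that Psmb8 and Psmb9 replace, Psmb5 and Psmb6, changed by -0.41 ± 0.16, adjusted p = 0.0327, and -0.43 ± 0.11, adjusted p = 0.00351 in EN. None of 14 constitutive core genes passed the 2-fold threshold at 5W, and all 14 had negative changes in both roots, with medians of -0.43 in EN and -0.50 in AN.

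Of 17 MHC regulators, 7 rose at 5W in EN and 5 rose and 1 fell in AN. Ciita read 4.40, 4.39 and 4.13 in EN at P0 and 7.75, 9.44 and 8.27 at 5W, a change of 4.18 ± 0.51, adjusted p = 1.55e-06. It was near background at P0, and EN at 5W was at least 10.6-fold above the background limit. Nlrc5 read 4.29, 4.97 and 4.64 at P0 and 7.92, 7.52 and 8.72 at 5W in EN, a change of 3.42 ± 0.81, adjusted p = 0.00158 and at least 7.79-fold. In AN the changes were 3.23 ± 0.51, adjusted p = 3.22e-05 for Ciita and 3.13 ± 0.81, adjusted p = 0.00341 for Nlrc5 by limma. On number 3 of 1W, where the interferon targets were high, Nlrc5 read 8.93 in AN and 9.01 in EN, against 4.95 to 5.82 on the other 1W arrays. Ciita read 7.45 and 7.71 there, against 5.62 to 6.50. The gene that fell in AN was Rfx5, a subunit of the factor that binds the X box of the module, by -1.27 with an adjusted p of 0.000109 (limma). Nfyc, a subunit of the factor that binds ATTGG, changed by -0.39 there, under 2-fold. In EN 7 of 12 tested interferon gamma targets and 13 of 16 type I targets rose at 5W, led by Irgm2 (3.25) and Mx1 (3.57). Cxcl10 fell in both roots, by 1.32 on the log2 scale in EN and 1.68 in AN.

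**Figure D5:**
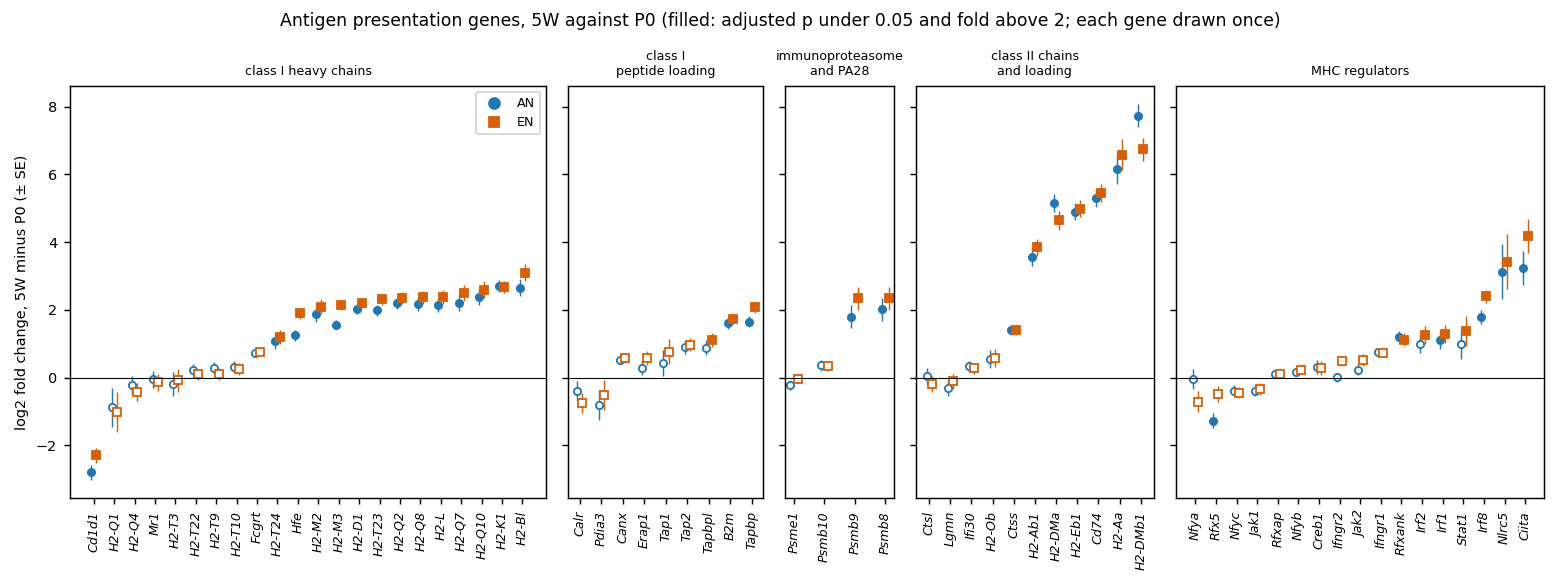
Log2 fold change from P0 to 5W (vertical axis, ± SE, n = 3 arrays per group) of each tested antigen presentation gene (horizontal axis), by list, with AN as circles and EN as squares; filled marks passed an adjusted p under 0.05 and a fold above 2. H2-DMb1, at 6.74 in EN and 7.73 in AN, and the class II chains stand highest, and Cd1d1 lowest at -2.30 and -2.80.

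From P0 to 5W most macrophage markers rose with the members, and a smaller share of the B cell markers did. The 5W counts here stand beside 15.4% of all probes called higher in EN and 15.2% in AN. Of the 14 macrophage markers 12 rose at 5W in EN and 9 in AN, with medians of 2.04 and 1.32. Cd163, a scavenger receptor, changed by 3.71 in EN and 2.37 in AN, and Cd14 by 3.20 and 2.24, all past the threshold. The smallest changes were those of Itgam, at -0.79 and 0.05, which did not pass in either root. Cd68 came next, at 1.19 in EN, past the threshold, and at 0.39 in AN, not past it. Of 6 tested dendritic cell markers 4 rose in EN and 2 in AN, with Itgax highest at 2.99 and 2.14 and Siglech lowest at -0.26 and -0.445. The Siglech values are uncertain, with an SE of 0.46 and adjusted p-values of 0.656 and 0.443 by limma, and its probe varied between slides. Xcr1, Clec9a and Cd209a were above background on too few arrays to be tested. Of 7 B cell markers 3 rose at 5W in EN and 2 in AN, led by Blnk at 2.99 and 2.94. Cd79b changed by 1.715 in EN, past the threshold, and by 0.99 in AN, under 2-fold. Ms4a1 (CD20), at 0.52 and 0.66, and Cd22, at 0.205 and -0.047, did not pass. From P0 to 3W 4 of the 7 rose in each root, with medians of 1.24 in EN and 1.34 in AN. Over that span 16.1% of all probes rose in EN and 15% in AN. Of 8 tested T and NK cell markers 3 rose at 5W in EN and 2 rose and 1 fell in AN. Of 10 Schwann cell markers 2 rose and 1 fell at 5W in EN, and 6 rose in AN, with medians of 0.44 and 1.13. The part of these cells in the MHC changes was not tested.

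The genes with the courses most like those of the members were named by Pearson r over the 8 group means, among 9764 genes whose group means spanned more than 1 log2 unit. For the mean of H2-Aa, H2-Ab1, H2-Eb1 and Cd74 they were Aagab (r = 0.9979), Rnls (0.9971), Rhbdd1 (0.9927), 4933434E20Rik (0.9927) and Sbds (0.9908). For the mean of H2-K1, H2-D1 and B2m they were H2-Q8 (r = 0.9985), H2-Q10 (0.9967), H2-K2 (0.9966), Mpdz (0.9960) and H2-Q7 (0.9957). The 4 H2 genes among them share long stretches of sequence with H2-K1 and H2-D1. The 8 means share slides and ages, and any gene that climbs steadily with age scores high on this measure.

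The further probes of the members moved the same way from P0 to 5W where they were measured. A second H2-K1 probe changed by 2.58 in EN and 2.40 in AN, a second B2m probe by 2.01 and 2.06 and a second Tap1 probe by 0.92 and 0.32. In AN minus EN at 5W these probes gave 0.11, 0.29 and -0.10, in that order. The probes used gave 0.26, -0.06 and 0.12, so the sign differed for B2m and Tap1. Of 3 further H2-Ab1 probes, 2 changed by 4.01 and 4.28 in EN and the third by 2.36, and it read 9.09 on number 3 of 5W EN, against 13.06 and 14.11 on numbers 1 and 2, with no spot marked as an outlier. That probe was the only H2-Ab1 probe that gave AN above EN at 5W (0.61), against -0.72 to -1.03 for the other 3. The second Psmb9 probe was above background on 1 array.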

How the data were processed

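Cyanine-3 labelled RNA of 24 samples was hybridised to Agilent mouse arrays (1 colour). According to the labels and the paper's methods, the authors extracted intensities with Agilent Feature Extraction 10.7.1.1 and quantile normalized them, and the deposited log2 table holds the result. Each column matched its own array's scanner intensities best (r of at least 0.992). From these log2 values a model of 8 group means was fitted with limma 3.58.1 in R 4.3.3 (two-sided, empirical Bayes, 16 residual degrees of freedom), on the probes that every array of some group read well above background. A call needed a Benjamini-Hochberg adjusted p under 0.05 over 36398 probes and a fold above 2. Each gene took its probe with the highest mean, and lists were summed on the linear scale. The members, lists and named genes were chosen with earlier results of these data known. From the lists the text names some, not all, of the genes with the largest and smallest mean changes from P0 to 5W. It also names 12 fixed genes and others outside this rule, such as Ctss.

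The replicate numbers of AN and EN were taken as pairs from the data: deviations from the group means correlated in all 12 pairs (r of 0.107 to 0.647, consensus 0.564), and the labels do not say what a number shares. The r were lowest at 3W, and same-numbered arrays of an age shared a slide. Alternatives were the scanner intensities under 3 scalings, other filters and thresholds, blocks for pairs and slides, and each array left out. The scripts were first tested on simulated data. Precision is limited by 3 arrays per group, and p-values measure only the spread between these samples, part of which may be technical. Tables and plots used Python 3.11.15 with pandas 2.3.3 and matplotlib 3.10.9.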

Additional observations from a re-analysis of the deposited data

How the results depend on the processing

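The 17 counts of members called were recomputed under other settings and without each of the 24 arrays, and no called member value changed sign. Of 306 such counts under the other settings, 291 stayed within 1.5 times. These include counts of 0 that stayed 0, such as those of the interactions, so the share says less about the calls themselves. With the pairs as a replicate block (a random block of age and replicate number) 1 member passed in AN against EN at 5W in place of 0, as it did with normexp background correction and with unadjusted p-values. With that block and no limit on the fold, which was chosen after seeing the data, the counts in AN against EN were 3 at P0, 4 at 3W and 5 at 5W, 5 for 3W against 1W in EN and 4 in AN, and 7 for 5W against 3W in EN. Without the block and with no limit on the fold, those last 3 counts were again 5, 4 and 7. Such calls were common among all tested probes. Under the block at any fold, 2.96% were lower and 2.38% higher in AN at P0. For 3W these shares were 13.6% and 10.1%, and for 5W 13.9% and 12.1%. Without the block, 13.2% of probes rose from 1W to 3W at any fold in EN and 14.6% in AN. No any-fold share is given for the step from 3W to 5W in EN. With slide as a term 3W against 1W in EN gave 1, and with the compared groups fitted alone 5W against 3W gave 0 in EN and 0 in AN; the cause was not tested. The block changed no other count by over 1.5 times.

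Leaving out 1 array gave, in EN, 7 to 7 members for 1W against P0, 8 to 8 for 3W, 9 to 9 for 5W, 2 to 3 for 3W against 1W and 3 to 7 for 5W against 3W. In AN it gave 5 to 6, 6 to 7, 9 to 9, 0 to 0 and 5 to 7. AN against EN gave 0 to 1 at 5W, where leaving out number 1 of 5W EN brought in H2-Eb1 and leaving out number 2 of P0 EN brought in H2-Aa, and 0 to 0 at the other ages and for the interactions. Without both roots of number 3 of 1W, number 1 or 2 of 5W, or number 3 of 3W, chosen after seeing the data, the counts stayed within 1.5 times.

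The 3 arrays per group limit the precision. P0 levels of H2-Aa, Ciita and Nlrc5 lie near background. Age, slide and the share of sensory tissue in a root overlap in part, and the 3W arrays share 1 slide. Probes of the H2 class I family are not specific to 1 gene with certainty. Nothing here separates cell number from expression per cell.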

Other observations

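The order of H2-DMb1 and the class II chains over time differed in these values. In EN H2-DMb1 had changed by 5.04 log2 units at 1W and 6.74 at 5W, and Cd74 by 1.77 and 5.46. No test of the difference between the 2 genes was made, and each probe has its own response.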
